A study of Zea mays subsp. mays with 8 samples.

Results

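In maize seedlings, 3070 regions of transcription initiation were listed in both tissues of one inbred line, in the sets that the files name Mo17, and in neither tissue of B73. Start sites were read by CAGE (cap analysis of gene expression), in which transcripts are caught by their 5′ cap and a short tag is sequenced from that end. The deposited files group neighbouring start sites into clusters. To find the regions, the 75681 clusters of all 4 sets were merged into 27756 loci wherever clusters of the same strand overlapped by at least 1 bp. Loci with a cluster in both Mo17-named sets and none in the B73 sets numbered 3248. Of these, 178 held a cluster of a dense run (at least 10 dominant sites of a set with gaps of at most 2000 bp) and were left out. The 3070 that stayed were 11.1% of all loci and 21.0% of the 14588 loci outside dense runs that both Mo17-named sets listed. They were chosen by the presence and absence of clusters, which depends on signal, so neither their presence in the Mo17-named sets nor their absence from B73 is a finding.

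The study took roots and shoots from wild-type seedlings of the maize inbred lines A632 and B73 at 14 days, untreated, with 2 libraries in each of 4 groups. Each library came from 5 pooled seedlings, and B73 root libraries had 16 PCR cycles where all others had 14. The files hold 4 sets with 1 value per cluster and no value per library: a Mo17-named root set (suffix R) with 18358 clusters, a Mo17-named shoot set (suffix S) with 22875, a B73 root set with 14568 and a B73 shoot set with 19880. The sample labels name A632 and no Mo17, which is another maize inbred line, so the Mo17-named sets are called by their name in the files and tied to no labelled library. Lacking values per library, no difference given here has a replicate check. Intervals are 95% Wilson intervals that cover counting error only, with loci taken as independent. Behind the dominant (strongest) sites stood 2797561 tags in Mo17-named root, 3409185 in Mo17-named shoot, 1267305 in B73 root and 2394924 in B73 shoot. The B73 sets thus had fewer such tags in both tissues, a count that covers the dominant sites of listed clusters and not whole libraries. The part of tag depth in the absence of a B73 cluster was not tested. Positions follow the deposited coordinates, whose build the sources used here do not give. Loci carry no gene name, so root and shoot could not be checked against marker genes.

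As background, transcription by RNA polymerase II starts either at a narrow stretch of a few bases, often set by a core promoter element such as a TATA box, or over a broad stretch of many scattered positions. Inbred maize lines differ in promoter sequence, in transposable element insertions and in the genes they carry, and a gene can have several alternative promoters. A start region listed in only 1 line can therefore lie next to a start region of the other line or far from any.

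Most of the 3070 loci, like most loci of all 4 sets, lay far from the next start region of B73. The median distance to the nearest B73 cluster on the same strand, from edge to edge, was 40849 bp. A B73 cluster lay within 500 bp of 512 loci (16.7%, interval 15.4 to 18.0) and beyond 500 bp of 2558 (83.3%). Within 10 bp there were 93 loci (3.03%, 2.48 to 3.70) and within 100 bp 272 (8.86%, 7.91 to 9.92). At the other end, 986 loci (32.1%, 30.5 to 33.8) were more than 100000 bp from a B73 cluster on their strand. The 1530 loci listed in both B73 tissues and no Mo17-named set were much like the Mo17-named ones in this respect. A Mo17-named cluster lay within 500 bp of 252 of them (16.5%, 14.7 to 18.4), and their median distance was 43596 bp. The intervals of the shares within 500 bp overlapped between both kinds of single-line locus, while at 1 to 50 bp the share was 6.12% (5.33 to 7.03) of the Mo17-named loci and 9.74% (8.35 to 11.3) of the B73-only loci. At 501 to 2000 bp the order was the opposite, with 6.12% (5.33 to 7.03) and 2.16% (1.54 to 3.01). For scale, 559 of the 9757 loci of all 4 sets outside dense runs (5.73%, 5.29 to 6.21) had another B73 locus within 500 bp on their strand. Their median distance to it was 62182 bp. These distances are not alike. B73 clusters within a locus of all 4 sets were passed over, and neighbouring B73 start sites had already been grouped into clusters. Whether the 3070 loci lay nearer to B73 than other loci did thus cannot be read from them.

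**Figure D1:**
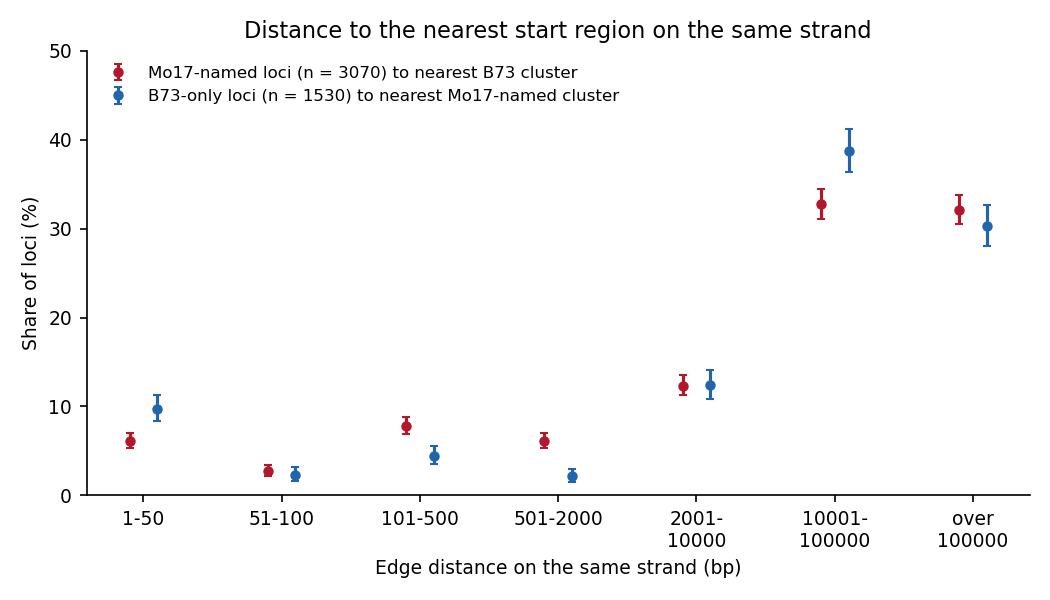
Share of loci (y axis, percent) by edge distance to the nearest cluster of the other line on the same strand (x axis, bp), for the 3070 Mo17-named loci and the 1530 B73-only loci. Points are shares and bars are 95% Wilson intervals. At 1 to 50 bp lay 6.12% of the Mo17-named and 9.74% of the B73-only loci, and distances over 10000 bp hold most loci of each kind.

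Isolation from B73 was mostly isolation from any start region. No other locus of any of the 4 sets lay within 500 bp on the same strand for 2458 of the 3070 loci (80.1%, 78.6 to 81.4) and within 10000 bp for 1807 (58.9%, 57.1 to 60.6). Another locus of the same kind lay within 2000 bp for 189 (6.16%, 5.36 to 7.06). Such counts were not made for other loci, so this isolation is not shown to be particular to the 3070 loci. On the opposite strand a B73 cluster was within 500 bp of 47 loci (1.53%, 1.15 to 2.03). In 39 of these the B73 cluster lay upstream, the arrangement of a divergent pair, in 6 it lay downstream and in 2 it overlapped. How often this arrangement occurs at other loci was not measured. The loci were spread over all 10 chromosomes. Among loci of both Mo17-named sets, those without a B73 cluster made up from 19.6% (17.4 to 22.0) on chromosome 7 to 23.0% (20.6 to 25.6) on chromosome 9, and these 2 intervals overlapped. Over 195 windows of 10 Mb with at least 20 such loci, the share had a median of 20.8%. Its highest value was 43.3% (13 of 30 loci) from 80 to 90 Mb of chromosome 7, followed by 41.9% (18 of 43) from 140 to 150 Mb of chromosome 4. Its lowest value was 7.69% (3 of 39) from 140 to 150 Mb of chromosome 5. Windows at the ends of such a ranking are picked for their values, and their intervals do not allow for that.

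Signal at the 3070 loci was low. The deposited signal is a normalized value that follows a power law of the tag number, in which a single tag is worth 0.138 in Mo17-named root and 0.243 in Mo17-named shoot. In root the loci had a median signal of 3.52 (quartiles 2.10 and 5.94), with 15 tags at the median dominant site, and in shoot 3.80 (2.51 and 6.16), with 12 tags. The 9757 loci of all 4 sets outside dense runs had medians of 12.7 in root and 14.3 in shoot, with 45 and 44 tags. The lowest signal was 0.276 in root and 0.486 in shoot. Together the 3070 loci held 3.14% of the signal of the Mo17-named root set and 3.10% of the shoot set. In both tissues, 502 loci (16.4%) reached a signal of 5 or more, 163 reached 10, 54 reached 20 and 4 reached 100.

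The share of Mo17-named loci without a B73 cluster was lower at each higher step of signal. Steps were set on the geometric mean of the root and shoot signals. Below 2 the share was 69.3% (65.9 to 72.5) of 753 loci, from 2 to below 5 it was 46.0% (44.4 to 47.6) of 3725, and from 5 to below 10 it was 16.1% (15.0 to 17.4) of 3596. It then stood at 5.63% (4.86 to 6.51) of 2985 loci from 10 to below 20, 2.93% (2.31 to 3.71) of 2286 from 20 to below 50, and 1.45% (0.918 to 2.28) of 1243 at 50 or more. Signal bears on membership, and the sources used here do not say what it took for a cluster to be listed, so these shares are a description with no test. For scale, loci listed in B73 root alone had a median signal of 4.003 and loci listed in B73 shoot alone 3.73, close to the medians of the 3070 loci. The distance to B73 did not follow signal in the same way. The share within 500 bp lay between 11.1% and 23.9% in the 6 steps, and all of their intervals overlapped.

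**Figure D2:**
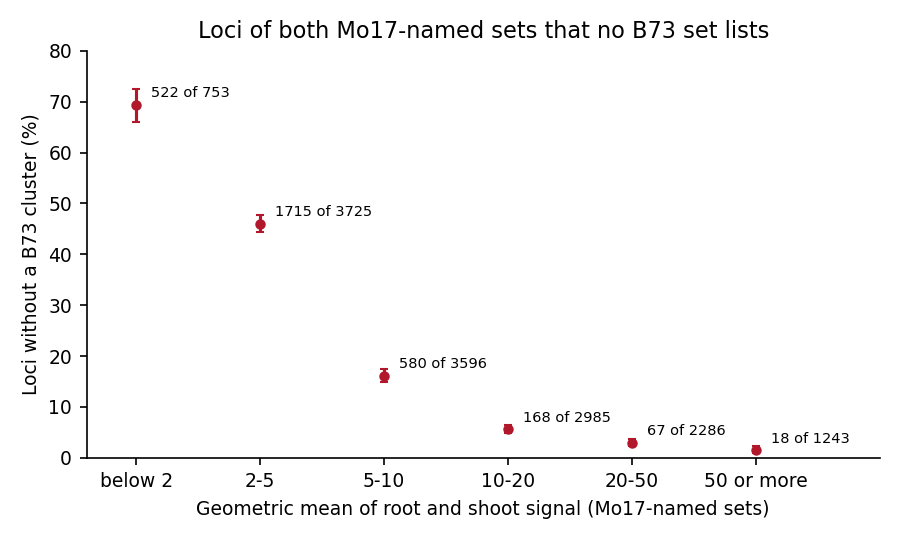
Share of loci of both Mo17-named sets that no B73 set lists (y axis, percent) by the geometric mean of their root and shoot signals (x axis). Points are shares with 95% Wilson intervals and labels give the counts. The share is 69.3% below a signal of 2 and 1.45% at 50 or more.

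Because listing sets who belongs, the limits of the rule are given as values only. Among loci with a cluster in a run of 7 to 9 dominant sites, 34 were kept, with median signals of 4.37 in root and 1.93 in shoot. Among those in runs of 10 to 12, 24 were left out, with 4.73 and 2.22. The 93 loci within 10 bp of a B73 cluster had medians of 4.80 in root and 4.38 in shoot. Another 722 loci of both Mo17-named sets overlapped a B73 cluster only partly and by at most 10 bp, and these had 7.81 and 7.24.

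Of the 10 strongest loci, 9 were narrow in both tissues and 8 lay more than 2000 bp from a B73 start region on their strand. Ranked by the lower of the root and shoot signals, the first lay at 44815986 to 44815991 on the minus strand of chromosome 7. Its root signal was 719 and its shoot signal 370.0, with 4324 and 3355 tags at the shared dominant site 44815986. From the 10th to the 90th percentile its signal spanned 2 bp in root and 3 bp in shoot, a span called the width from here on. Its nearest B73 cluster was 15179 bp upstream and had a signal of 30.1, in shoot alone. The second lay at 224983557 to 224983565 on chromosome 1 (minus strand), with root and shoot signals of 132 and 143, 5 bp from a B73-only locus that is described further on. The third, at 196450405 to 196450410 on the minus strand of the same chromosome, had 149 in root and 128 in shoot and lay 13066 bp from B73. Next in rank was 133921662 to 133921663 on the plus strand of chromosome 10, with 124 in root and 122 in shoot, which was 156556 bp from B73. Signals of these 4 differed by less than 2-fold between the tissues.

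The next 6 had lower signals between 73.9 and 79.3. They began at 268412970 on chromosome 1 (minus strand), 97878436 on chromosome 5 (minus), 86527701 on chromosome 5 (minus), 22550551 on chromosome 4 (plus), 8874293 on chromosome 1 (plus) and 134059657 on chromosome 9 (plus). Of the 10 strongest, 9 had a width of at most 5 bp in both tissues. The exception, 97878436 to 97878596 on chromosome 5, was 154 bp wide in root and 159 bp in shoot and lay 310 bp upstream of a locus of all 4 sets. Only that locus and the one at 224983557 on chromosome 1 had a B73 cluster within 500 bp on their strand.

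Strong loci more than 100000 bp from a B73 cluster on their own strand began with the one on chromosome 10 and the one at 8874293 on chromosome 1. That locus had signals of 101 in root and 75.7 in shoot and lay 167352 bp from B73 on its strand, but 6120 bp from a B73 cluster on the other strand. They were followed by 184277123 to 184277281 on the minus strand of chromosome 1, with 39.9 in root and 40.5 in shoot and widths of 39 and 38 bp, at 253201 bp. Next came 93991214 to 93991215 on the plus strand of chromosome 2, with 38.4 in root and 53.4 in shoot, at 784259 bp, and then 150345735 to 150345874 on the minus strand of chromosome 8, with 32.0 in root and 26.0 in shoot, at 526811 bp. On the other strand of that locus a B73 cluster lay 2169 bp away. Narrow and broad start regions thus both occurred at such distances.

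At a limit of 10 bp about as many of the 3070 loci were narrow as broad, and most kept their class in both tissues. With a width of at most 10 bp called sharp, 1569 loci (51.1%, 49.3 to 52.9) were sharp in root and 1472 (47.9%, 46.2 to 49.7) in shoot. This limit sits close to the median width, and the deposited shape score, called sharp above -1, gave 92.5% in root and 92.8% in shoot. Both tissues were sharp at 1379 loci and both broad at 1408, while 190 were sharp only in root and 93 only in shoot. The whole middle 80 percent of the signal fell on 1 bp in both tissues at 251 loci (8.18%, 7.26 to 9.20). The median width was 10 bp for root and 12.5 bp for shoot. Loci of all 4 sets were sharp less often, with 38.7% (37.8 to 39.7) in Mo17-named root and 35.2% (34.3 to 36.2) in Mo17-named shoot. B73-only loci were sharp in 58.5% (56.0 to 60.9) of cases in B73 root and 50.3% (47.8 to 52.8) in B73 shoot.

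The excess of sharp starts over other Mo17-named loci was widest among the stronger loci. From 5 to below 10, 51.9% (47.8 to 55.9) of the 580 loci without B73 were sharp in root, against 38.2% (36.5 to 40.0) of the 3016 loci with a B73 cluster. From 10 to below 20 the shares were 66.1% (58.6 to 72.8) of 168 and 34.9% (33.1 to 36.6) of 2817, and from 20 to below 50 they were 71.6% (59.9 to 81.0) of 67 and 38.4% (36.4 to 40.4) of 2219. In shoot they were 61.9% (54.4 to 68.9) and 31.1% (29.4 to 32.9) from 10 to below 20. Below a signal of 2 the intervals overlapped in both tissues, with 49.4% (45.2 to 53.7) and 43.7% (37.5 to 50.2) in root. A wide cluster has more bases with which to overlap a B73 cluster, so width is not fully separate from the rule. The 141 loci from 10 to below 20 that lay over 500 bp from any B73 cluster were sharp in 64.5% (56.4 to 72.0) in root and 61.7% (53.5 to 69.3) in shoot. The loci compared with them still belong through an overlap with B73, so these shares do not separate width from the rule. Among all 3070, those within 500 bp of B73 were sharp more often, with 61.9% (57.6 to 66.0) in root and 61.1% (56.8 to 65.3) in shoot, than those beyond, with 48.9% (47.0 to 50.9) and 45.3% (43.4 to 47.2).

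**Figure D3:**
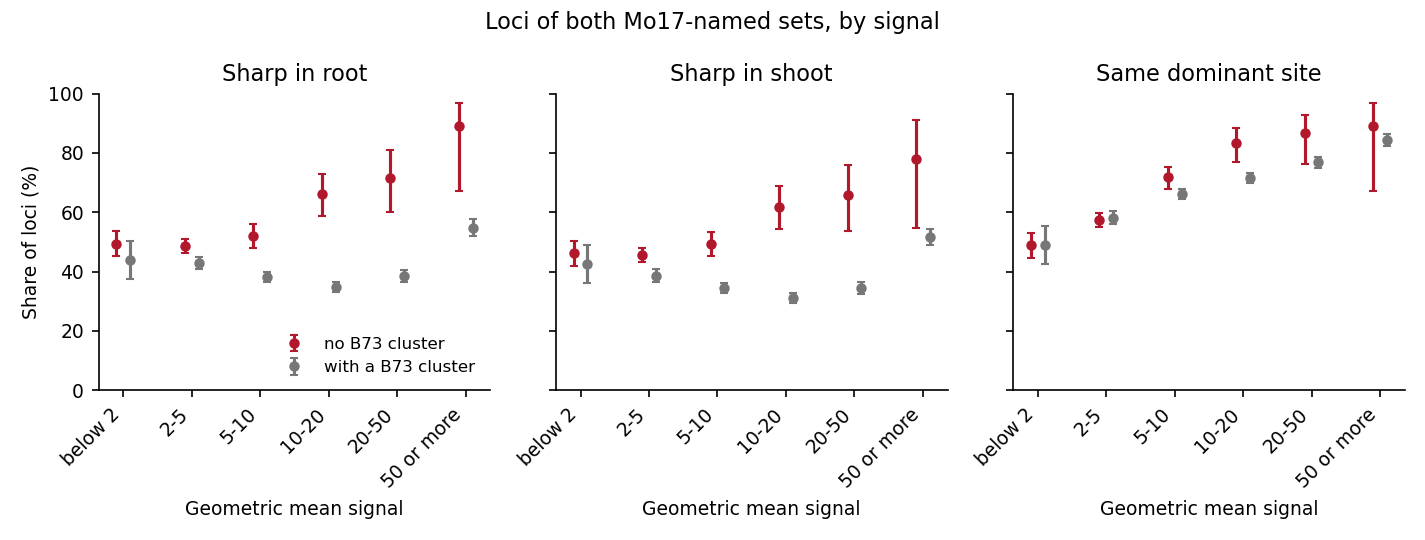
Share of loci (y axis, percent) that were sharp in root, sharp in shoot, or had the same dominant site in both tissues, by geometric mean signal (x axis), for loci of both Mo17-named sets without and with a B73 cluster. Points are shares and bars are 95% Wilson intervals. From 10 to below 20, 66.1% of loci without and 34.9% of loci with a B73 cluster were sharp in root.

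Root and shoot used the same base at most of these loci. The dominant site was identical at 1871 (60.9%, 59.2 to 62.7), 1 to 10 bp away at 548 and more than 10 bp away at 651 (21.2%, 19.8 to 22.7), with 204 bp as the widest separation. The share with the same site was 48.9% (44.6 to 53.1) below a signal of 2, 57.5% (55.1 to 59.8) from 2 to below 5, 71.7% (67.9 to 75.2) from 5 to below 10 and 83.3% (77.0 to 88.2) from 10 to below 20. For loci with a B73 cluster the same steps gave 48.9% (42.5 to 55.3), 58.2% (56.0 to 60.3), 66.0% (64.3 to 67.7) and 71.6% (69.9 to 73.2). The intervals overlapped in the 2 lower steps and were separate in the 2 higher ones, and they overlapped again from 20 to below 50, with 86.6% (76.4 to 92.8) and 76.7% (74.9 to 78.5). Across all 3070 loci, Spearman's rho between root and shoot was 0.793 for width and 0.154 for signal. The loci share 2 sets and are no independent samples, and rho for signal was 0.466 over the 11518 loci with a B73 cluster. Signal of the 3070 loci had a narrower range, with root quartiles of 2.10 and 5.94 against 5.78 and 30.4 at loci of all 4 sets. The part of this range and of listing in the lower rho was not tested.

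Few of the loci differed strongly between root and shoot. The call for a tissue required that the difference of log2(signal + 1) reach 4-fold and the higher signal be at least 1. The added 1 makes the fold of weak loci too small. This fixed size stands in for a test. By this rule 108 of the 3070 loci (3.52%) were higher in root, where the same rule called 5.04% of all 14588 loci of both Mo17-named sets. In shoot 162 (5.28%) were higher, where it called 10.2% of all. The other 2800 were neither, and the median of root minus shoot on this log2 scale was -0.09 over the 3070 loci and -0.06 over all. The split between the tissues turned with the scale. On recovered tags, scaled to the same total in each set, 280 of the 3070 loci were higher in root and 91 in shoot. There the same rule called 9.39% and 7.89% of all 14588 loci. After quantile normalization of the cluster signals the counts were 185 and 83, where the same rule called 6.35% and 8.45% of all loci. On tags and after quantile normalization the root-higher share was close to that of all loci. The shoot-higher share was below that of all loci on each of these scales. Dominant-site tags moved the median of all loci to 0.40 and that of the 3070 to 0.45. Which tissue had more calls thus cannot be read from the deposited signal alone.

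Listing also bears on these calls. The higher of the 2 signals was at least 1.41 in each of the 3070 loci, and where root was below 1, at 317 loci, shoot was at least 2.34. Where shoot was below 1, at 138 loci, root was at least 2.24. Root signals below 1 occurred at 10.3% (9.30 to 11.5) of the 3070 loci and 4.51% (4.15 to 4.91) of loci with a B73 cluster. Shoot signals below 1 occurred at 4.50% (3.82 to 5.29) and 0.712% (0.574 to 0.883). Among loci that reached 5 in both tissues, 8 of 502 loci (1.59%) were higher in root and 9 (1.79%) in shoot, against 4.01% and 3.96% of all 7928 loci at that level. By steps of geometric mean signal, however, root-higher shares had overlapping intervals in all 6 steps. They were 1.72% of the loci without and 0.866% of the loci with a B73 cluster below 2, 4.66% and 4.08% from 5 to below 10, and 7.74% and 5.61% from 10 to below 20. From 2 to below 5 they were 3.15% and 4.18%. Shoot-higher shares were the lower ones without B73 in the 4 steps below 20, with separate intervals, for example 4.14% (3.30 to 5.19) and 16.0% (14.5 to 17.7) from 2 to below 5, and overlapped above. These steps were computed on the deposited signal alone, and the scale moves the split.

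**Figure D4:**
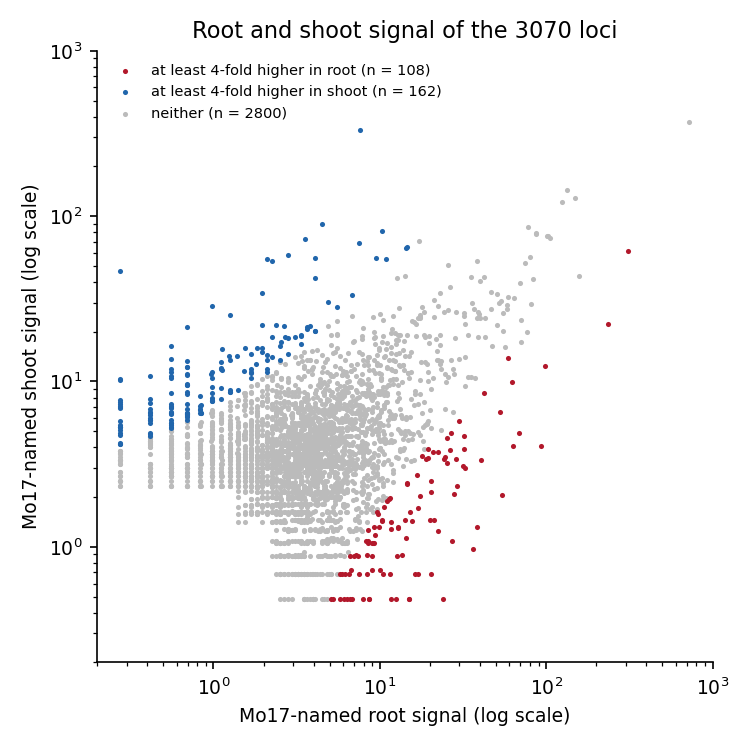
Mo17-named root signal (x axis, log scale) against Mo17-named shoot signal (y axis, log scale) of the 3070 loci, each point being 1 locus. Coloured points are the 108 loci at least 4-fold higher in root and the 162 at least 4-fold higher in shoot, on log2(signal + 1). The empty lower left corner shows that no locus had a signal below 1 in both tissues.

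Loci with the largest excess in root lay on 5 chromosomes, with differences taken among loci that reached a signal of 5 in a tissue. The first, at 124117978 to 124118007 on the minus strand of chromosome 10, had 36.3 in root and 0.972 in shoot (log2 difference 4.24), and 142 tags against 1 at its dominant sites. The second was a single base, 162206321 on the plus strand of chromosome 6, with 93.3 in root and 4.09 in shoot (642 and 25 tags, log2 difference 4.21). It lay 4 bp upstream of a B73-only locus with 10.4 in B73 root and 1.99 in B73 shoot, so that this neighbour was higher in root too. The remaining 3 were 164099261 to 164099281 on the plus strand of chromosome 8 (4.18), 231079930 to 231079932 on the minus strand of chromosome 3 (4.08) and 1632400 to 1632435 on the plus strand of chromosome 2 (4.08). The lowest shoot signal of these 5 was 0.486, at the locus on chromosome 3, whose dominant site in shoot had 1 tag.

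In shoot the largest excess was at 193136844 to 193137000 on chromosome 3 (minus strand), with 7.62 in root against 333 in shoot (log2 difference -5.27) and 34 and 1855 tags at the same dominant site, 193136849. Next came 77972057 to 77972159 on the minus strand of chromosome 6, with 0.276 in root and 46.9 in shoot (-5.23) and a dominant site of 1 tag in root and 295 in shoot. The next pair were neighbours on the minus strand of chromosome 5, 5821 bp apart. At 70555748 to 70555765, root had 2.09 and shoot 54.7 (-4.17), and at 70561569 to 70561586, root had 2.24 and shoot 53.6 (-4.08). The width was 6 bp in root and 4 bp in shoot at both. The fifth, 142347205 to 142347295 on the plus strand of chromosome 10, had 4.50 in root and 90.1 in shoot (-4.05). It lay 46 bp upstream of a locus listed in Mo17-named shoot, B73 root and B73 shoot. All 10 of these loci kept their direction and a difference of at least 4-fold in each alternative tried. These were dominant-site tags scaled to the same total, a pseudocount of 0.5 and quantile normalization.

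The 512 loci with a B73 cluster within 500 bp divided into 3 kinds by the sets that list that neighbour. For 222 (43.4%) the neighbour was listed in both Mo17-named tissues too, so that the Mo17-named line had a further start region beside a shared one. In 189 of these the neighbour was a locus of all 4 sets. For 257 (50.2%) the neighbour was listed in B73 alone, so that each line had a start region the other lacked in the lists, side by side. For the other 33 the neighbour was listed in 1 Mo17-named tissue. Median distances were 202 bp beside loci of both Mo17-named tissues and 21 bp beside B73-only loci. The Mo17-named locus lay downstream of the shared neighbour in 144 of 222 cases (64.9%, 58.4 to 70.8) and downstream of the B73-only neighbour in 152 of 257 (59.1%, 53.0 to 65.0). Both intervals lie above 50 percent, while that of the third kind of neighbour does not, with 16 of 33 downstream (48.5%, 32.5 to 64.8). How often other neighbouring start regions lie downstream was not measured, so this side is not shown to be particular to the 512 loci. Some of these loci share a neighbour, since 204 shared neighbours and 248 B73-only neighbours were involved. With only the nearest locus of each neighbour counted, an alternative added after seeing the data, the shares were 65.2% (58.4 to 71.4) and 59.7% (53.5 to 65.6).

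A start region beside a shared one is illustrated by the broad locus at 97878436 on chromosome 5. Its signals were 86.3 in root and 78.4 in shoot. The shared neighbour downstream, with 97878124 as its dominant site, had 45.3 in Mo17-named root and 36.7 in Mo17-named shoot, against 43.7 in B73 root and 12.02 in B73 shoot. The shared neighbour was narrow in B73, where the width was 1 bp for root and 3 bp for shoot.

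The distance between the start sites of the lines was measured where a locus of both tissues of each line lay side by side. Of the 257 loci next to a B73-only neighbour, 157 had a neighbour listed in both B73 tissues, 41 in root alone and 59 in shoot alone. In the 157 pairs the median edge distance was 17 bp (quartiles 6 and 60), and 134 pairs (85.4%) were within 100 bp. The pairs rest on 150 B73 loci, of which 5 were paired with 2 or 3 Mo17-named loci, so that the pairs are not independent. The dominant sites were a median of 42 bp apart in root and 41 bp in shoot. Pairs needed loci that do not overlap and lie within 500 bp, so the rule bounds these distances at both ends. Shifts inside overlapping clusters are not among them. The Mo17-named site was downstream of the B73 site in 94 pairs (59.9%, 52.1 to 67.2) and upstream in 63. Direction was the same in root and shoot in all 157, which follows from the loci not overlapping. The shift was equal to the base in both tissues in 53 pairs (33.8%, 26.8 to 41.5).

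Signals of the pairs were low in both lines. Medians were 3.80 in Mo17-named root and 4.50 in Mo17-named shoot, against 4.28 in B73 root and 5.41 in B73 shoot. Most were narrow, with median widths of 5 and 9 bp in Mo17-named root and shoot, against 4 and 6 bp in B73. In root, 66 pairs were sharp in both lines, 20 broad in both and 71 of differing class. In shoot the counts were 57, 29 and 71. Spearman's rho between the lines for root minus shoot on log2(signal + 1) was 0.428 across the 157 pairs, a description over loci that share the same 4 sets.

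**Figure D5:**
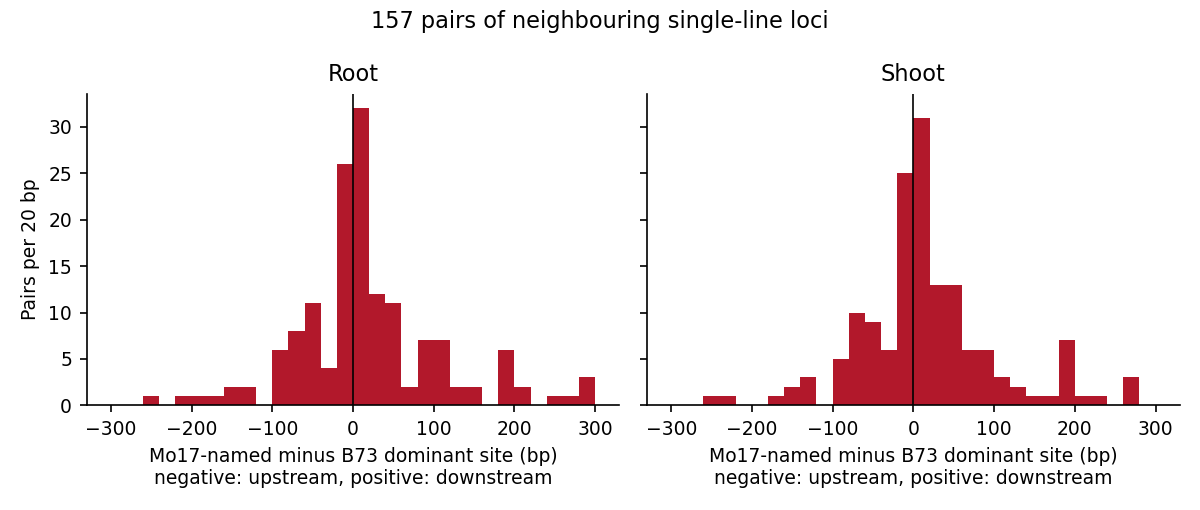
Distance along the strand from the B73 to the Mo17-named dominant site (x axis, bp) in 157 pairs of neighbouring loci listed in both tissues of a single line each, in root and in shoot, as pairs per 20 bp (y axis). Positive values lie downstream. In each tissue 6 pairs lie beyond 300 bp and are not drawn, and 94 of 157 pairs lie on the downstream side.

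Strong examples of such pairs were taken by the lowest of their 4 signals, a ranking chosen with these values in view. The first was on chromosome 1 (plus strand), where the Mo17-named locus 255041429 to 255041476 had signals of 24.3 in root and 26.2 in shoot, while the B73 locus 255041422 to 255041424 had 16.2 in root and 15.4 in shoot. Both Mo17-named tissues had 255041466 as dominant site and both B73 tissues had 255041424, 42 bp apart. The Mo17-named cluster was 41 bp wide in root and 42 bp in shoot, and the B73 cluster 2 and 3 bp.

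The second pair holds the locus at 224983557 on chromosome 1 (minus strand). Its dominant site was 224983564 in both Mo17-named tissues (818 tags in root, 1108 in shoot) and 224983550 in both B73 tissues (41 and 47 tags). The Mo17-named site thus lay 14 bp upstream, with signals of 132 and 143 against 11.2 and 20.6 in B73. The Mo17-named widths were 1 bp (root) and 2 bp (shoot), against 9 and 11 bp in B73.

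A pair on chromosome 5 (plus strand) had 212661826 as dominant site in the Mo17-named tissues and 212661780 in B73, 46 bp apart in root and in shoot. Signals were 81.5 in Mo17-named root and 29.2 in Mo17-named shoot, against 78.3 in B73 root and 10.1 in B73 shoot. All 4 clusters were 3 or 4 bp wide, and root was higher than shoot in both lines. A pair on the plus strand of chromosome 2 was 72 bp apart in root and 73 bp in shoot, with dominant sites at 73700368 in Mo17-named root and 73700296 in B73 root. Its signals were 24.6 and 11.1 in Mo17-named root and shoot, against 33.5 and 27.0 in B73. Another Mo17-named locus, beginning at 73700197, lay 75 bp upstream of the same B73 locus, with 2.39 in root and 1.99 in shoot, so that the B73 locus was flanked on both sides. On the plus strand of chromosome 3 the shift was 29 bp in root and 32 bp in shoot, with 22.3 and 28.7 in the Mo17-named tissues against 9.88 and 24.6 in B73.

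Other strong loci had weak B73 neighbours. At 5707724 on the plus strand of chromosome 4, a Mo17-named locus with 53.7 in root and 30.7 in shoot began 11 bp downstream of a B73-only locus with 5.53 in root and 3.55 in shoot. At 151087412 to 151087558 on the minus strand of chromosome 9, signals were 64.0 in Mo17-named root and 32.1 in Mo17-named shoot, against 1.37 in B73 root and 4.07 in B73 shoot at a locus 57 bp downstream. At 234652440 to 234652444 on the plus strand of chromosome 4, signals were 46.7 in root and 35.0 in shoot, and the neighbour 14 bp upstream was listed in B73 shoot alone, with 5.12. In each of these the Mo17-named signal exceeded that of B73 by more than 4-fold in the tissues that B73 lists. They were picked by their Mo17-named signal, which favours weaker neighbours, and the reverse also occurred. At 163648571 on the minus strand of chromosome 7, Mo17-named root and shoot had 5.49 and 19.0, against 374.9 and 161.8 in B73. Over the 157 pairs, median signals were lower in the Mo17-named sets than in B73 in both tissues.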

How the data were processed

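Tags of 27 bp were made by CAGE from 5 µg of total RNA per library, per the labels' protocols. The submitters' processing notes name Bowtie2 2.0.4. No build, clustering tool or threshold is given in the sources used here. Each deposited cluster signal and dominant-site signal had been scaled by the authors along a power law; inverting it (exponents 1.01 in Mo17-named root and 0.877 in Mo17-named shoot) gave whole tag numbers at 100% of dominant sites within 0.01 tags. The deposited shape score is not named in the files and served only in an alternative. No molecular identifier is described, so PCR copies count as tags.

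Signals of several clusters of a set in a locus were summed (7 loci), and site and width were taken from the cluster with the strongest dominant site. Positions count from 1. The functions were tested on simulated data. The members, limits and rankings were chosen with earlier results of these data known. Named loci are the 10 with the highest lower signal, the 5 with the largest difference each way at a signal of at least 5, and the 5 strongest within 500 bp and beyond 100000 bp of B73. Gene names foreseen for these could not be given. Alternatives changed the joining of clusters, dense runs, thresholds, scale and definitions. The scripts used Python 3.11.15 with pandas 2.3.3, numpy 2.4.6, matplotlib 3.10.9 and scipy 1.17.1.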

Additional observations from a re-analysis of the deposited data

How the results depend on the processing

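Joining clusters up to 20 or 100 bp apart, or keeping dense runs, moved the number of loci by less than 1.5 times. Limits on both tissues left 1812 loci at a signal of 2, 502 at a signal of 5 and 568 at 20 tags. Also leaving out loci inside the span of a dense run of any set, an alternative chosen after seeing the data, removed none. The share near B73 was 8.86% within 100 bp, 22.8% within 2000 bp and 20.9% with dense runs kept. For root over shoot, the counts with root and with shoot higher were 280 and 91 on dominant-site tags scaled to a common total. After quantile normalization they were 185 and 83, and where both signals reached 5 they were 8 and 9. With a pseudocount of 0.5 they were 167 and 255, where the same rule called 5.88% and 11.8% of all 14588 loci. At 2-fold they were 506 and 649, where it called 16.7% and 22.8% of all. Sharp shares in root and shoot were 40.6% and 36.7% at a width of at most 5 bp, 92.5% and 92.8% by a shape score above -1, 63.7% and 62.2% with at least 20 tags, and 53.4% and 50.3% with dense runs kept. The same dominant site was found in 74.9% within 5 bp and in 92.3% with at least 20 tags in both. Dominant-site tags scaled to a common total had medians of 5.36 in root and 3.52 in shoot. They count the dominant site only, so they are not the cluster signal (medians 3.52 in root and 3.80 in shoot) in other units. Apart from the settings that keep fewer loci by construction, the cause of these moves was not tested. All 30 settings tried on the 10 loci named for their tissue difference kept its direction. Tag numbers limit the comparison of dominant sites, since a median of 15 tags (root) and 12 (shoot) lay behind them. No paired analysis was possible because the files hold 1 value per set and no replicate.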

Other observations

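Besides the neighbours on chromosome 5 described above, 1 other pair of these loci lay within 20000 bp on a strand with equal length, widths and place of the dominant site, and with signals within 10% of each other in both tissues, a search made with the values in view. On chromosome 3 (plus strand), the loci 194095529 to 194095533 and 194101994 to 194101998 lay 6465 bp apart. They had 3.10 and 3.38 in root and 18.6 and 18.9 in shoot, with widths of 5 bp in each tissue. The files do not say whether tags that match several places were kept, so tags shared between near-identical copies were not tested.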
